A study of Mus musculus with 4 samples.

Results

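The epidermal growth factor receptor EGFR (gene Egfr), its 3 relatives ERBB2, ERBB3 and ERBB4, and 6 proteins that restrain these receptors were followed in mouse NIH3T3 cells. The members were 10 genes chosen by their names, of 34816 names on the array, where a probe without a gene name counts under its own. Every probe carrying 1 of these names was taken, which gave 15 probes of 55670, and 10 of the 15 passed the filter on dim signal. NIH3T3 is an immortalised line of mouse embryonic fibroblasts. In the study, RNA was taken at steady state from cells expressing wild-type EGFR (2 arrays) and from cells expressing a deletion mutant of EGFR (2 arrays), and both groups share the NIH3T3 background. The labels give no treatment. They do not say which stretch of EGFR is deleted, from which species, vector or promoter the receptor comes, or whether a line is a clone or a pool.

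EGFR and its relatives are receptor tyrosine kinases of the cell surface. A ligand of the EGF or neuregulin type brings receptors together in pairs, the kinase domains phosphorylate the receptor tails, and adaptors couple these to the RAS and ERK cascade and to PI3K. ERBB2 binds no known ligand and serves as a partner, and ERBB3 has a weak kinase. Signalling is curbed at several levels. ERRFI1 (also MIG6 or RALT) binds the active kinase domain from inside the cell, LRIG1 is a transmembrane protein that lowers receptor levels, and the ubiquitin ligases CBL and CBLB mark activated receptors for uptake and lysosomal breakdown. SOCS5 carries an SH2 domain and a SOCS box and also lowers EGFR levels. LRIG3 is a relative of LRIG1 whose effect on EGFR is less settled.

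Each transcript was read by probes of 60 bases, and the positions and transcripts below are those of the array's design on mm9. Because the probe decides which Egfr message is seen, the first 30 bases of the probes on which the results turn are shown. The Egfr probes are annotated to different transcripts. The one at chr11:16813815-16813874 starts at base 5869 of NM_207655, transcript variant 1, which encodes the full-length receptor. Those at chr11:16783556-16783615 and chr11:16787172-16787231 start at bases 2099 and 2188 of NM_007912, transcript variant 2, a shorter message. Whether the probe at base 2099 also matches variant 1 was not checked here.
Egfr, base 5869 of NM_207655, first 30 bases: gttgcaagccactctaactgtagcaatgaa
Egfr, base 2099 of NM_007912, first 30 bases: tctggaagtatgcagatgccaataatgtct
Egfr, base 2188 of NM_007912, first 30 bases: gaagtgtggccatctgggtacgttcaatgg
Errfi1, chr4:150242886-150242945, first 30 bases: ctccgcactgtgtgtacagtattggacaaa
Lrig1, chr6:94554811-94554870, first 30 bases: aagactacatggaaacacaaactcagtcct
Lrig1, chr6:94554523-94554582, first 30 bases: ttgaagtgtctaacaaatggcataaagtgt
Lrig3, chr10:125452006-125452065, first 30 bases: acgctacctcagctgggcttctatttaaag
Cblb, chr16:52207889-52207948, first 30 bases: atattttaaatattgatgcaggtactttct
The Lrig1 and Cblb probes lie on NM_008377 and NM_001033238, that of Errfi1 on NM_133753 and that of Lrig3 on NM_177152. By these accessions 14 of the 15 probes, and all 10 genes, matched a RefSeq gene of the same symbol. The remaining probe, of Erbb4, carries an Ensembl transcript.

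Across the arrays, between 42.9% and 46.9% of probes were well above background and no spot was saturated. Signals are given in intensity units, and scaled levels as log2 relative to each array's 75th percentile, which lay between 327 and 366.6 units. Arrays of a group correlated at 0.9971 and 0.9962 across probes, and arrays of different groups at 0.9599 to 0.9604. The labels number the arrays of a group without saying whether they came from separate cultures. The p-values then cover only array-to-array spread, possibly technical. All arrays shared 1 slide, with each group in a column of its own, so column and group cannot be told apart. With 2 arrays a group, the number of arrays limits the precision. All 10 fibroblast markers were well above background on every array, with a summed signal of 696000 and 764000 units in wild-type and 482000 and 534000 in deletion-mutant cells. Of 8 epithelial markers at most 2 were detected on an array, and the defining Epcam and Cdh1 were below background on all 4. The epithelial keratin Krt8 was well above background on both deletion-mutant arrays and neither wild-type array. Its rise was at least 2.79-fold under the main processing. The limma adjusted p of 0.0112 belongs to the fitted difference of Krt8, not to this bound. The summed epithelial signal was 122 and 128 units in wild-type and 207 and 179 in deletion-mutant cells. Sox10 of neural crest and Ptprc of leukocytes were below background as well, and S100b was at least 1.48-fold lower. Of the fibroblast markers 7 were lower and 3 did not pass, where 23.4% of all gene names were lower. The part of these marker shifts in the results below was not tested. In bulk RNA, fewer cells of a type and less RNA per cell cannot be told apart.

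In the deletion-mutant cells, the signal of the brightest Egfr probe fell to background. Errfi1 and Lrig1, both inhibitors of the receptor, rose 4.94-fold and 3.69-fold. The ubiquitin ligases Cblb and Cbl rose less, 1.80-fold and 1.27-fold, and Lrig3 fell 1.65-fold. Erbb2 and Socs5 did not pass the test, and Erbb3 and Erbb4 were detected in neither group. Of the 10 genes, 8 passed the filter on dim signal, by at least 1 probe that was well above background on both arrays of a group. By the brightest such probe of each gene, 6 of 8 passed limma's adjusted p of 0.05, 4 higher and 2 lower. Among all 18093 gene names 57.2% passed, 33.7% higher and 23.4% lower, so the members' count of calls stands near the background. The median difference of the 8 genes was 0.27 (log2), against 0.066 over all gene names. In all 8 genes the arrays of the groups did not overlap, which also held for 81.7% of all gene names. Counted by probe, 8 of the 10 tested member probes passed, 5 higher and 3 lower, against 56.7% of all tested probes, 32.6% higher and 24.1% lower, and 81.1% of probes had groups that did not overlap. Calls with a rise of at least 2-fold made up 5.93% of gene names and 5.84% of probes, and calls with a fall of that size 7.43% of gene names.

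**Figure D1:**
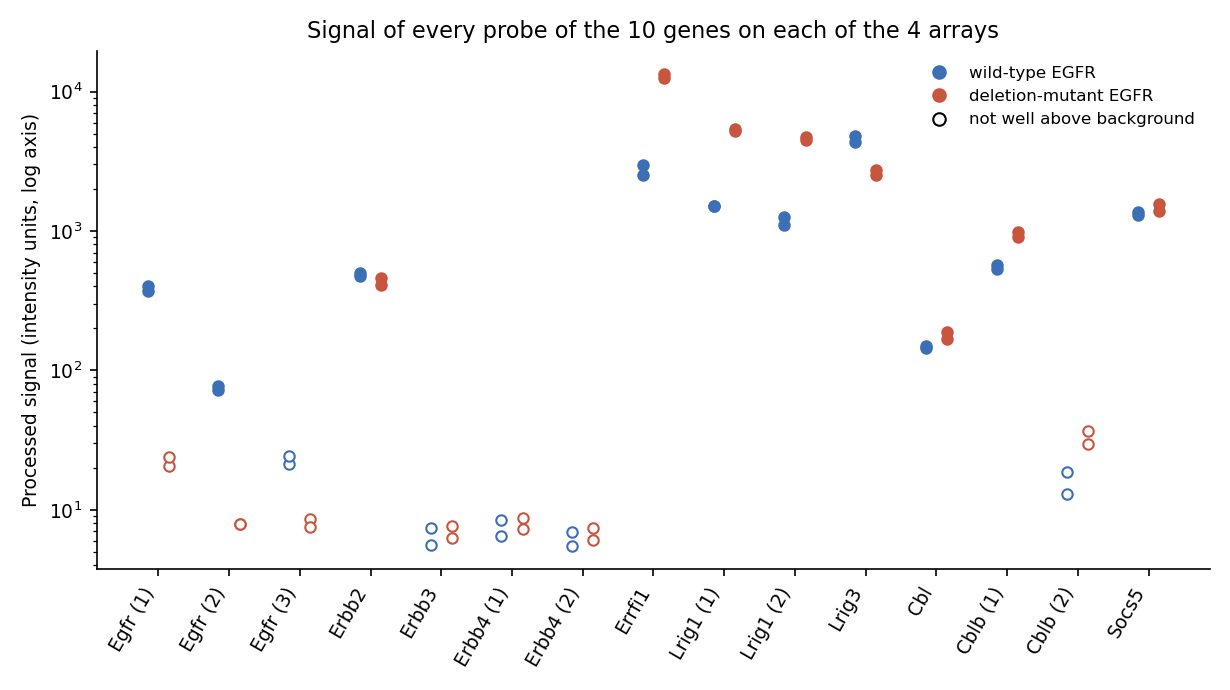
Processed signal (intensity units, log axis) of all 15 probes on each of the 4 arrays, with 1 point an array, wild type in blue and deletion mutant in red. Open points were not well above background; Egfr is filled only in wild type, and Errfi1 rises from 2540 and 2950 to 12500 and 13300 units. Probes of a gene are numbered from the brightest.

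The receptors came first. On the probe for Egfr variant 1, the wild-type arrays gave 369 and 402 intensity units and the deletion-mutant arrays 20.6 and 24.1. The signal was well above background on both wild-type arrays and on neither deletion-mutant array, and the groups lay far apart. The scaled level was 0.12 ± 0.025 (SD, n = 2) in wild type and -3.93 ± 0.081 in the deletion mutant. Since the latter lies at background, only a bound can be given. The probe passed the filter through its wild-type arrays alone. The fall of this Egfr signal was at least 11.5-fold under the main processing. The limma adjusted p of 0.000279 belongs to the fitted difference, which takes the dim values as they stand, and does not test this bound. For this bound each dim array was set at its own signal or at a floor, whichever was higher. The floor was the dimmest signal of any probe called well above background on that array. It is not a detection limit. On the second deletion-mutant array it was 35.8 units, yet an Egfr spot of 41.5 was not well above background. With the normexp background correction the fitted fall was smaller than this bound (-2.17, log2).

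This probe was printed 10 times on each array, which gives its spread within an array. The 10 spots ran from 328 to 418 units (median 370) on the first wild-type array and from 337 to 440 (median 406) on the second. On the deletion-mutant arrays they ran from 8.82 to 33.9 (median 22.1) and from 10.9 to 41.5 (median 27.0). Of these, 1 of 10 spots on the first array and 0 of 10 on the second were well above background. No spot of a deletion-mutant array came near the dimmest wild-type spot. Repeat spots are technical and were averaged before the test.

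**Figure D2:**
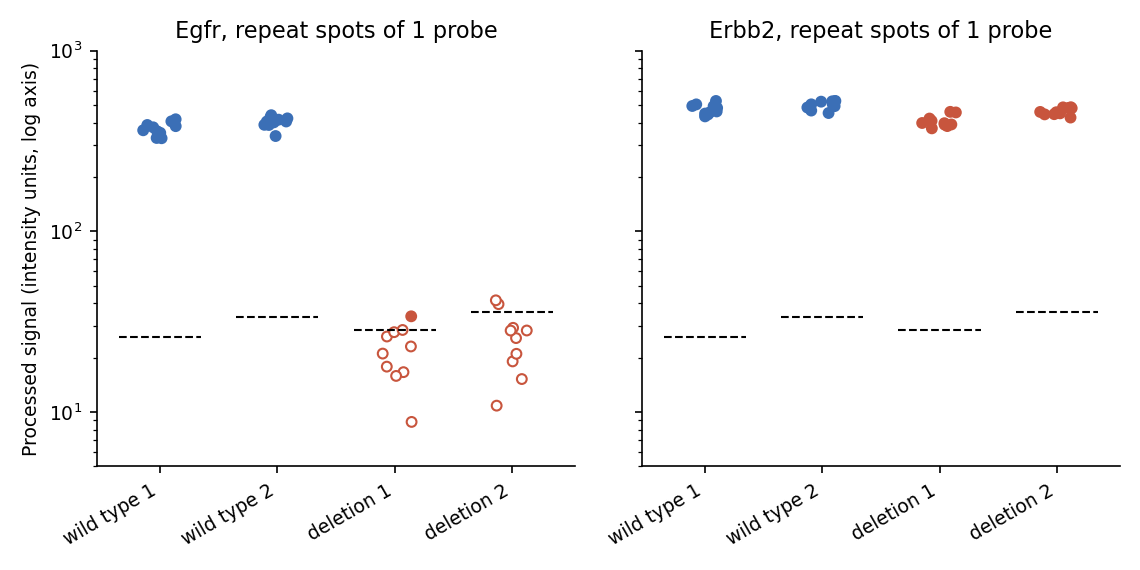
Processed signal (intensity units, log axis) of the 10 repeat spots of the Egfr and Erbb2 probes on each array; open points were not well above background, and dashed lines mark each array's dimmest probe that was well above background. Egfr spots drop from 328 to 440 units in wild type to 8.82 to 41.5 in the deletion mutant, while Erbb2 spots stay between 372 and 527 on all 4 arrays.

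The Egfr probe at base 2099 of variant 2 was dimmer and moved the same way. It gave 71.8 and 77.0 units in wild type and 7.89 and 7.91 in the deletion mutant, where it was below background. The bound is a fall of at least 2.22-fold. Here too the limma adjusted p of 0.00029 belongs to the fitted difference and does not test the bound. The probe at base 2188 gave 21.3 and 24.4 units in wild type and 8.52 and 7.54 in the deletion mutant. It was below background on all 4 arrays and was not tested, so no fold is given. All 3 Egfr probes had both wild-type arrays above both deletion-mutant arrays. These are mouse probes, and the origin of the introduced receptor is not stated. They do not check which receptor each line carries, and whether they read the introduced message was not tested.

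Erbb2, the partner receptor without a ligand of its own, was well above background on all arrays, at 474 and 500 units in wild type and 407 and 461 in the deletion mutant. The groups did not overlap but lay close. The difference was -0.10 ± 0.063 (log2, SE) and missed the threshold (limma adjusted p = 0.238). Its probe (chr11:98298103-98298162) also had 10 spots an array, with medians of 472 and 505 units in wild type and 398 and 458 in the deletion mutant. With the 75th percentile taken over the probes detected on all arrays, Erbb2 passed downward at -0.30 (adjusted p = 0.0212), and with median scaling it stood at 0.08, so its direction depends on the scaling.

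Erbb3, the neuregulin receptor with a weak kinase, gave 5.57 and 7.34 units in wild type and 6.28 and 7.63 in the deletion mutant. Erbb4, the other neuregulin receptor, gave 6.44 and 8.43 against 7.30 and 8.74 units on its brighter probe, and 5.51 and 6.95 against 6.08 and 7.38 on the other. All 3 probes were below background on all 4 arrays and the groups overlapped on each. Among the family, then, the arrays detected Egfr and Erbb2 in wild-type cells and Erbb2 alone in deletion-mutant cells. A signal below background bounds a level and does not show that the message is absent.

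Errfi1, the cytoplasmic inhibitor of the EGFR kinase domain, showed the largest rise of the members. It gave 2540 and 2950 units in wild type and 12500 and 13300 in the deletion mutant. Both deletion-mutant arrays stood far above both wild-type arrays. The scaled level went from 2.95 ± 0.090 (SD, n = 2) to 5.25 ± 0.013, a difference of 2.31 ± 0.072 (log2, SE; limma adjusted p = 0.00043). It ranked 148 from the top among 18093 gene names.

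Lrig1, the transmembrane inhibitor that lowers receptor levels, was read by 2 probes that lie in the same transcript at bases 4618 and 4906. The former gave 1520 and 1500 units in wild type and 5230 and 5410 in the deletion mutant. The latter gave 1110 and 1270 in wild type and 4520 and 4730 in the deletion mutant. On both probes the deletion-mutant arrays were well clear of the wild-type arrays. The differences were 1.88 ± 0.071 and 2.03 ± 0.068 (log2, SE), or 3.69-fold and 4.08-fold (adjusted p = 0.000538 and 0.000457). The probes share a transcript and are not independent replicates.

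Lrig3 went the other way. It gave 4370 and 4770 units in wild type and 2540 and 2750 in the deletion mutant, with no overlap, and fell by 0.72 ± 0.058 (log2, SE; adjusted p = 0.00186). Lrig2, the remaining gene of this family and not a member, stood at 0.12 ± 0.13 (log2, SE) and did not pass (adjusted p = 0.489), with arrays that overlapped. The LRIG genes thus gave a rise, a fall and a difference that missed the threshold.

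The ubiquitin ligases moved less. Cblb gave 530 and 573 units in wild type and 989 and 906 in the deletion mutant, and rose 1.80-fold (0.85 ± 0.10, log2, SE; adjusted p = 0.00409). Its arrays were apart, although the deletion-mutant arrays differed more from each other than in most members (SD 0.16). A further Cblb probe (chr16:52205507-52205566) gave 12.9 and 18.6 units against 29.6 and 36.9, was below background throughout and was not tested. Cbl (chr9:43958124-43958183) gave 144 and 149 units in wild type and 168 and 188 in the deletion mutant, a rise of 1.27-fold (0.34 ± 0.062; adjusted p = 0.0127). This call was lost with the percentile of the detected probes (0.15, adjusted p = 0.116) and without the filter on dim probes (adjusted p = 0.124). It was also lost without the first or the second wild-type array or without the second deletion-mutant array (adjusted p = 0.0558, 0.0694 and 0.0531).

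Socs5 (chr17:87536500-87536559) gave 1310 and 1360 units in wild type and 1390 and 1550 in the deletion mutant. The groups did not overlap, but the difference of 0.20 ± 0.061 (log2, SE) lay on the edge of the threshold (adjusted p = 0.0501). It passed with median scaling at 0.38 (adjusted p = 0.0111) and stood at 0.01 with the percentile of the detected probes (adjusted p = 0.927). No change of Socs5 that is independent of the scaling was therefore shown.

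**Figure D3:**
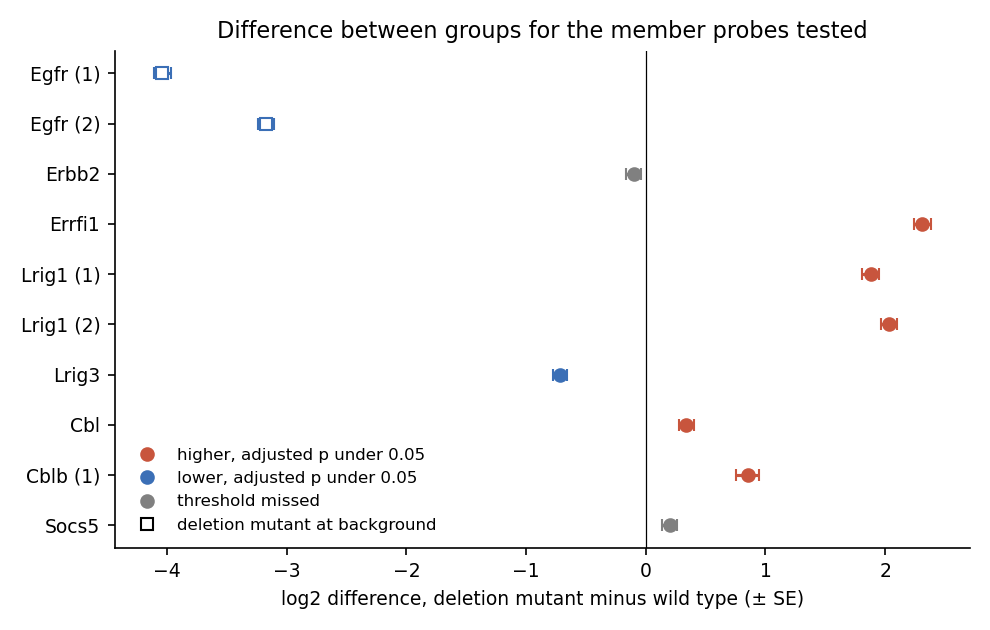
Difference between the groups (log2, deletion mutant minus wild type) with its standard error for the 10 member probes tested, n = 2 arrays a group. Errfi1 (2.31) and Lrig1 (1.88 and 2.03) lie to the right, Lrig3 (-0.72) to the left; open squares mark Egfr, whose fitted difference is not a measured fold since the deletion-mutant arrays lie at background.

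The choice of scaling decided the small differences. Median scaling shifted the median of all gene names by 0.18 (log2) and spike-ins by 0.082. Quantile normalization shifted it by -0.062, and the percentile of the detected probes by -0.194. Of all probes called, 57.5% were higher in the deletion mutant under the 75th percentile of all probes. That share was 72.1% with median scaling, 64.5% on spike-ins, 51.8% after quantile normalization and 37.7% where detected probes set the percentile. Under each of these scalings Egfr and Lrig3 passed as lower and Errfi1, Lrig1 and Cblb as higher. The percentile of the detected probes gave 3 members higher and 3 lower.

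**Figure D4:**
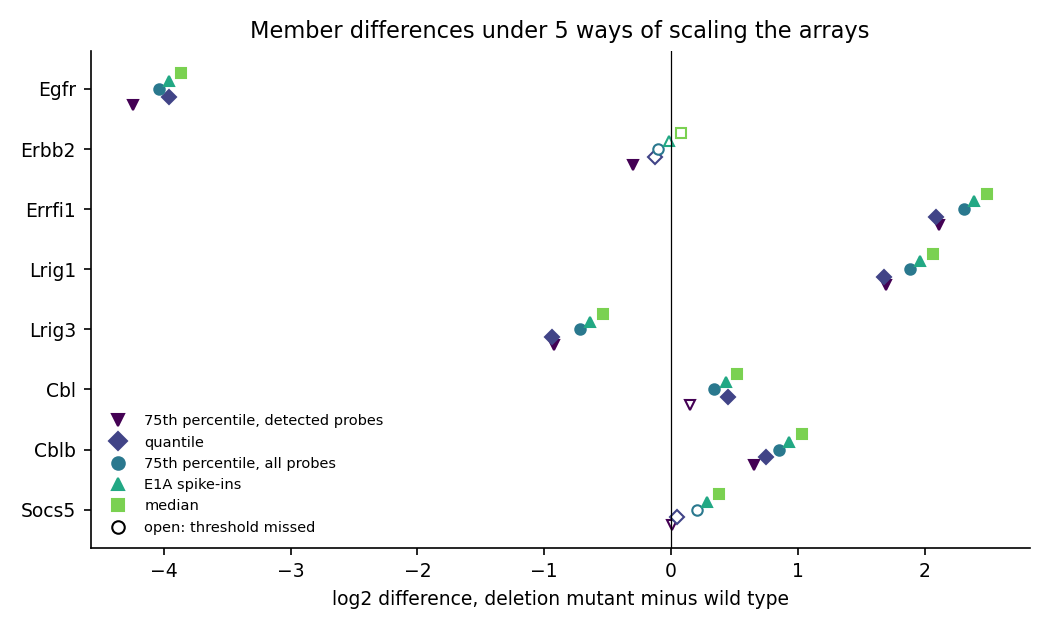
Difference between the groups (log2) of the 8 tested genes, brightest probe, under 5 scalings of the arrays; open symbols missed an adjusted p of 0.05. Errfi1 stays between 2.09 and 2.49 and Lrig3 between -0.94 and -0.54, whereas Erbb2, Cbl and Socs5 change their side of the threshold.

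Egfr lies on chromosome 11, and the genes around it were measured as well. Within 1 Mb on each side of the Egfr probes, 14 other names had a probe and 6 passed the filter. Of these 3 were higher, 1 was lower and 2 did not pass. Over all gene names 57.2% passed, 33.7% higher and 23.4% lower, so the count over these 6 names stands near the background. The ribosome biogenesis factor Pno1 rose by 0.71 and Ppp3r1, the regulatory subunit of calcineurin, by 0.40 (log2), at 290 and 286 kb from Egfr. The call of Ppp3r1 was lost without the second wild-type array (adjusted p = 0.0546) and where detected probes set the percentile (0.21, adjusted p = 0.0548). Wdr92, at 321 kb, rose 4.53-fold (2.18 ± 0.075, adjusted p = 0.000474). The nearest names, 21.8 kb away, were 2810442I21Rik at -0.03, which did not pass, and a noncoding interval that fell by 0.43. Sec61g, a channel subunit for protein export on the other side of Egfr, stood at -0.20 and did not pass (adjusted p = 0.103), though it did where detected probes set the percentile (-0.40, adjusted p = 0.0161). No flanking name that passed the filter fell by 2-fold.

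The Egfr signal in deletion-mutant cells lies below background, so which genes come closest to its pattern is not measured. By the distance between centred log2 values over the 4 arrays, which takes those dim values as they stand, Palm2, Acta2 and Lox were picked among 12045 genes with a RefSeq match, and their order carries no meaning. Acta2 is the actin of smooth muscle and activated fibroblasts and stood at 6.24 in wild type and 2.24 in the deletion mutant (scaled log2). Lox, lysyl oxidase, cross-links collagen and went from 4.53 to 0.47. Palm2, like Egfr, was at background in the deletion mutant, at least 4.15-fold lower under the main processing.

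The promoters of the members that moved most are shown for their sequence alone, since the arrays measure no binding. They come from RefSeq on GRCm38.p6, as the 250 bases before a start site. Promoters were held for 8 of the 10 genes, not for Erbb3 and Socs5. The motifs were searched on both strands. TGANTCA stands for AP-1 and TGACGTCA for the full CRE, with TGACG as its shorter core. For ETS factors the letters were CCGGAAG, and further motifs were GGGCGG for the GC box, TATAAA for the TATA box and GCGNGGGCG for EGR1, besides the CArG box of serum response factor. Capitals mark the matches, and neighbouring matches can overlap.
Errfi1, chr4:150854820-150855069, plus strand: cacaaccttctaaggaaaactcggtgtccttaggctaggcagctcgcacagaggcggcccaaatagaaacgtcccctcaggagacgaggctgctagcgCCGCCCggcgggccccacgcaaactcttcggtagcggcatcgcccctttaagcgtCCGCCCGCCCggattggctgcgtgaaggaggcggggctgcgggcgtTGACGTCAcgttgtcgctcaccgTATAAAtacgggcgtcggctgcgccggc
Lrig1, chr6:94700146-94700395, minus strand: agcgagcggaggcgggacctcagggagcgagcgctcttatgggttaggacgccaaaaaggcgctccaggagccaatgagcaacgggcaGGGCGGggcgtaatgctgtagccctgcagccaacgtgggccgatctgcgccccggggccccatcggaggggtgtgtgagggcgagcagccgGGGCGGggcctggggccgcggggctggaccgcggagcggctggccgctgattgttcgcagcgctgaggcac
Egfr, chr11:16751953-16752202, plus strand: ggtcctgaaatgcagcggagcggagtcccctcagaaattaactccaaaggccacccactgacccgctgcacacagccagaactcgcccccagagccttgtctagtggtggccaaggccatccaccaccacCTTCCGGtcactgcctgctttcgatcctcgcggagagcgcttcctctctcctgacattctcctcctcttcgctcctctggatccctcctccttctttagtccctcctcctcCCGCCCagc
The downstream of the 2 Errfi1 start sites had a full CRE that began 51 bases before the start, a TATA box at 28 bases and 3 GC boxes. Of 32817 promoters of this length, 1.55% held a CRE, 12.4% a TATA box and 32.7% a GC box. Among the other member promoters none held a CRE. Lrig1 held 2 GC boxes with 26 CpG sites and 71.6% GC. Egfr held an ETS match, found in 6.90% of promoters, that began 120 bases before the start. No member promoter held AP-1 or CArG letters in this window, which 6.75% and 1.47% of promoters did.

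The rest of the pathway was described by 8 lists of genes, with the members left out. Of 112 genes listed, 93 passed the filter, and of these 42 were higher, 19 lower and 32 missed the threshold. That is 65.6% called, against 57.2% of all gene names, with a median difference of 0.24 (log2) against 0.066. The lists were chosen with earlier results of these data known, so this comparison is a description and not a test. Each list's counts below stand beside 33.7% higher and 23.4% lower among all gene names. Median scaling turned this split into 56 higher and 12 lower; taking the percentile over detected probes gave 34 higher and 26 lower. Without the first wild-type array 11 were lower, and without the second 12.

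Other SOCS genes, which act mainly as feedback inhibitors of cytokine receptors, rose in 5 of 7 cases and fell in 0, with a median of 1.14 (log2). Socs2 rose 3.48-fold, Socs1 2.53-fold and Socs6 2.45-fold, and Socs3 (1.14) and Socs7 (0.60, log2) rose as well. Socs4 (0.39) and Cish (0.25) did not pass. Across all alternatives 4 to 6 of the 7 were counted higher and 0 lower, and the call of Socs7 was lost without the first or the second wild-type array (adjusted p = 0.0755 and 0.0593). Socs5, at 0.20, had the smallest difference of the 8 SOCS genes.

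Of the ErbB ligands, 5 of 11 passed the filter. Ereg rose 10.4-fold and Hbegf 5.70-fold, and Btc was at least 3.83-fold higher under the main processing, all of them ligands of EGFR. With normexp the fitted rise of Btc was 1.14 (log2), less than that bound. Nrg1, a ligand of ERBB3 and ERBB4, fell 4.28-fold, and Egf itself fell by 1.12 (log2). The deletion-mutant level of Egf, -3.32, lay near the dimmest detected signals of those arrays (-3.516 and -3.296). Its difference was -0.4 with normexp, so the size of this fall depends on the processing. Genes of ligand shedding were mixed, with 2 of 7 higher and 3 lower. Timp3, an inhibitor of the sheddase ADAM17, fell 2.98-fold, Adam12 fell by 0.71 (log2), and Rhbdf1, a cofactor of ADAM17 transport, rose 1.42-fold. Leaving out either wild-type array left 1 higher and 1 lower gene, and the call of Adam12 was lost (adjusted p = 0.0952 and 0.0826). Without either deletion-mutant array, or under the replicate block, 1 was higher, and where detected probes set the percentile 5 were lower.

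Among adaptors and effectors that dock on the receptors, 8 of 19 were higher and 7 lower. The transcription factors Stat3 and Stat5a each fell 3.43-fold and the adaptor Grb10 fell 1.77-fold. The exchange factor Vav3 was at least 2.03-fold lower under the main processing (-0.51, log2, as fitted with normexp). Grb2, the adaptor that brings SOS to the receptor, rose by 0.62 ± 0.064 (log2, SE). Without the first wild-type array 5 were higher and 4 lower, and median scaling gave 10 higher and 4 lower.

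Of the genes that take up and sort receptors, 11 of 27 were higher and 1 was lower, with a median of 0.17 (log2). Among all gene names 33.7% were higher and 23.4% lower. Sh3kbp1, which encodes the CIN85 adaptor of CBL, rose 2.12-fold. Pdcd6ip rose 1.65-fold and Tsg101 1.57-fold, both of the machinery that sorts cargo at endosomes. The 1 lower call, Dnm2 (-0.22, log2), was lost without any 1 of the 4 arrays (adjusted p = 0.107 to 0.144), under the replicate block (0.0709) and with median scaling, where it stood at -0.04. The higher count was 18 with median scaling, 7 without the second wild-type array and 3 without the filter on dim probes, and quantile normalization gave 5 lower.

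Among other ubiquitin ligases and deubiquitinases, 6 of 13 were higher and 3 lower. The ligase Wwp1 rose 1.83-fold, the deubiquitinase Usp9x rose 1.61-fold and the deubiquitinase Usp2 fell 3.14-fold. The lower count fell from 3 to 1 without any 1 of the 4 arrays, with median scaling and on spike-ins, whereas Usp2 kept its call in each of these. Ubash3b, which binds CBL and was named after its values were seen, also passed as higher, but only 1 of its wild-type arrays was well above background, so no size is given. Tyrosine phosphatases, several of which act on EGFR, were higher in 6 of 10 cases, among them Ptpn6 (1.76-fold) and Ptpn9 (1.73-fold). The receptor-type Ptprk, which removes phosphate from EGFR, fell 2.58-fold; it was the 1 lower call of this list, which had 3 where detected probes set the percentile.

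Of 5 other genes in the list of LRIG and membrane modulators, Cd44, a hyaluronan receptor and ERBB coreceptor, rose 2.54-fold. Cav1, the caveolar scaffold that holds receptors in caveolae, fell 2.39-fold, and Erbb2ip, whose product binds the ERBB2 tail, fell 1.55-fold. Cd82 (0.18) and Lrig2 did not pass.

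**Figure D5:**
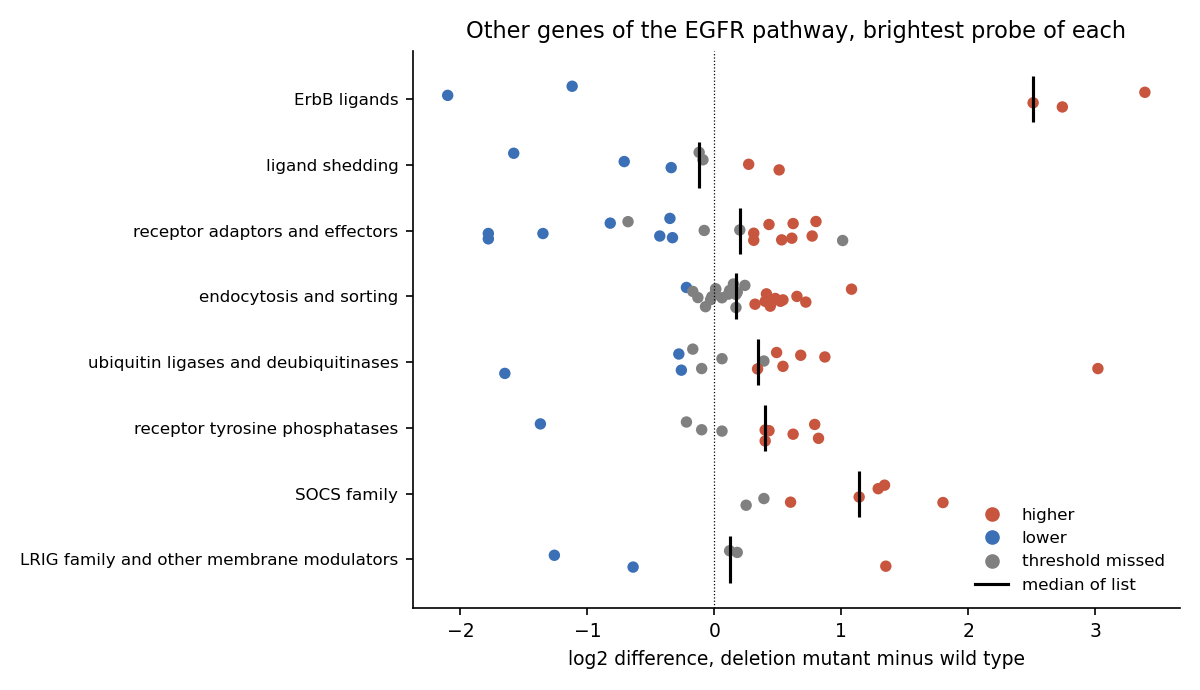
Difference between the groups (log2, deletion mutant minus wild type) for 1 brightest probe per gene in 8 lists of the EGFR pathway, members left out; black bars are list medians, and fitted values are shown also for Btc and Vav3, which lay at background in 1 group. The SOCS list sits to the right with a median of 1.14, while endocytosis and sorting stays close to 0 with a median of 0.17.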

How the data were processed

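RNA of NIH3T3 cells was labelled with Cy3 and hybridised to 1-colour Agilent mouse arrays, 2 per group, grouped by the sample titles. Per the file headers, the authors read them with Feature Extraction 10.10.1.1 (protocol GE1_1010_Sep10) on mm9; the deposited processed signal is an intensity after background subtraction and detrending, beside raw intensity and flags. The authors also deposited log2 values, which differed from log2 of the processed signal by 1 constant on each array (to within 0.01 for 100% of probes); their column medians lay between 4.4454 and 4.4481. The authors' own test is not given here.

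Marked outlier spots and controls were left out, spots of a probe averaged in log2, and each array's 75th percentile subtracted. A probe was kept if well above background, in a share of 0.5 or more of its spots, on both arrays of a group: 25162 of 55670 probes. These were fitted with limma 3.58.1 in R 4.3.3 (lmFit, eBayes; residual degrees of freedom 2, prior 2.09), p-values adjusted by Benjamini and Hochberg over all kept probes. A gene took the call of its brightest kept probe. The fit was first tested on simulated data. Figures used Python 3.11.15, pandas 2.3.3 and matplotlib 3.10.9.

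Named were all members, up to 3 genes per list with the largest difference, the largest bound per list, neighbours of Egfr changed at least 2-fold and the 3 genes most like Egfr; further genes named beside a count were chosen after their values were seen. Members and lists were chosen with earlier results of these data known. Alternatives were normexp (offset 50), quantile, median, spike-in and detected-percentile scaling, the authors' log2 values, both other filters, trend with robust variances, 1 feature per gene, the replicate block and leaving out each array. Some marker results are not reported here.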

Additional observations from a re-analysis of the deposited data

How the results depend on the processing

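Egfr, Errfi1, Lrig1, Lrig3 and Cblb kept their direction and passed under every alternative that tested them. The limits are few arrays, 1 slide and weak signal for Egfr. With normexp the fitted -4.04 of Egfr shrank to -2.17 and, on the dimmer probe, -3.17 to -0.84. Both falls are smaller than the bounds given for them. The same held for Btc (1.14), Krt8 (0.72), Vav3 (-0.51) and Palm2 (-1.6), but not for S100b (-0.83). The bounds thus hold for the main processing only. With the percentile of the detected probes Cbl stood at 0.15 and Erbb2 at -0.30, and 9176 probes in all were lower in place of 6066. Without a filter on dim probes Cbl (0.34) lost its call, and the counts fell to 7129 of all probes (3816 higher, 3313 lower, against 14268, 8202 and 6066), to 22 higher and 11 lower pathway genes (against 42 and 19) and to 2 neighbours of Egfr (against 4). Socs5 passed at 0.38 with the authors' log2 values and with median scaling, at 0.28 on spike-ins, and at 0.20 with 1 feature per gene, with trend and robust variances and with a filter on all 4 arrays. That filter left 1 lower member in place of 2, since Egfr is dim in 1 group. Lower pathway genes numbered 12 with median scaling and with the authors' values. Leaving out each array gave 0.31 to 0.37 for Cbl and 11 to 17 lower pathway genes; the lowest counts, 11 and 12, came without the first and the second wild-type array. The causes were not tested. The replicate number, which is also the row on the slide, did not pair the arrays (correlation of deviations 0.0416 over 25162 probes); as a replicate block it left 6 members called, 13146 probes in place of 14268, and changed no member's call.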
